A study of Mus musculus with 15 samples.

Results

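Mouse embryonic fibroblasts were profiled by RNA sequencing 24 h after interferon had been taken away, to ask what a short exposure leaves behind once the cytokine is gone. The 4 libraries of this comparison, out of 15 in the study, were chosen by their labels: 2 of wild-type (WT) cells that had seen interferon for 3 h and, after a wash, had spent 24 h in medium lacking it (pretreated 0 h), and 2 of WT cells that had never been exposed (naive 0 h). The study also held NSD2 KO cells, and cells of both genotypes given interferon beta at 100 units/ml for 2 h; NSD2, listed under its older symbol Whsc1, is a histone H3 lysine 36 methyltransferase. Further libraries are set beside the comparison here: 2 libraries of naive WT cells after 2 h of interferon beta (naive 2 h), 2 libraries of pretreated NSD2 KO cells at 0 h, and 2 libraries of naive NSD2 KO cells at 0 h. All cells were C57BL/6 fibroblasts in culture medium with donor bovine serum. The labels describe a wash for the pretreated cells only, so an effect of earlier interferon and an effect of washing and changing medium cannot be told apart. No source used here gives the dose or the type of interferon for the 3 h pretreatment, no library was taken at the end of that exposure, and nothing says whether replicates were separate cultures, so p-values measure only the spread between these libraries.

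Type I interferon binds the receptor pair Ifnar1 and Ifnar2 on the cell surface, and the kinases Jak1 and Tyk2 then phosphorylate STAT proteins, among them Stat2. Together with Irf9 these form ISGF3, a transcription factor that binds interferon-stimulated response elements (ISREs) in the promoters of many interferon-stimulated genes, whose products block viral entry, translation and replication. Feedback inhibitors such as Usp18 and the SOCS proteins damp the receptor, and fibroblasts are known to hold some interferon-stimulated genes in a changed state after the stimulus has gone.

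The promoters of 4 interferon-stimulated genes are shown because their transcripts ended up in 3 different places at 24 h: Bst2 and Slfn9 above their level at 2 h of a first exposure, Isg15 between that level and the naive one, and Ifit1 within the range of the naive libraries. Each window runs 5′ to 3′ along the gene's own strand from 250 bases before its start to 50 after it, from RefSeq on GRCm38.p6, and capitals mark the ISRE core GAAANNGAAA on either strand.
Bst2 (chr8:71537423-71537722, minus strand): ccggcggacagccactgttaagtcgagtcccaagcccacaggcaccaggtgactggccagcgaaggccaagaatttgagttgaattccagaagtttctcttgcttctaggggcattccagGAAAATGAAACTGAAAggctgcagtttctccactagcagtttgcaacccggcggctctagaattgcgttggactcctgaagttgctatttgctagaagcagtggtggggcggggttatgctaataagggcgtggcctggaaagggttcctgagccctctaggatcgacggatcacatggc
Slfn9 (chr11:82991781-82992080, minus strand): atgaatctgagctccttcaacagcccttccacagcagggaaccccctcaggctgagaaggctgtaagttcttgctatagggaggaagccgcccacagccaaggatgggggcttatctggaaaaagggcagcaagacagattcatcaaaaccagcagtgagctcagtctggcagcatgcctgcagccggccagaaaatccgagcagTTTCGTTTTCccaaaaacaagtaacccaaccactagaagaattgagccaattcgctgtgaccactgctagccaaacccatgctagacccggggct
Isg15 (chr4:156200769-156201068, minus strand): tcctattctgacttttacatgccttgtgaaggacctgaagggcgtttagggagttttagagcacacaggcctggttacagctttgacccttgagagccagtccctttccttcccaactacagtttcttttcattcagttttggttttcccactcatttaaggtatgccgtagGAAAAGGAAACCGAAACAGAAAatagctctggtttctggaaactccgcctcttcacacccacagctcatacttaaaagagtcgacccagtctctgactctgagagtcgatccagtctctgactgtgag
Ifit1 (chr19:34640639-34640938, plus strand): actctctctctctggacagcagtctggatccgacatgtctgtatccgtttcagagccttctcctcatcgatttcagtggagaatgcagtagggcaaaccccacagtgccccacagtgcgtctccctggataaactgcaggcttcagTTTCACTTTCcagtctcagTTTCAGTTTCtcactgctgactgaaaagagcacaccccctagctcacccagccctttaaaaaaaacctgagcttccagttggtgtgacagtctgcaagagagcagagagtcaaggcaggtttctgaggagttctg
The core began 130 and 124 bases before the start in Bst2, in overlapping copies. It lay at 45 bases in Slfn9, on the other strand, at 78, 72 and 66 bases in Isg15, in overlapping copies, and at 104 and 85 bases in Ifit1, on the other strand. Of 10249 tested genes with a window, 365 (3.56%) held the core, against 40 of 84 (47.6%) in 6 interferon effector lists, 11 of 36 (30.6%) among genes called higher by at least 2-fold at 24 h and 4 of 57 (7.02%) among genes called lower by at least 2-fold. The core was thus present both in genes called at 24 h and in Ifit1, which was not called, and a match is a description of the letters, not of binding.

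Promoters of 4 further genes stand for the other groups described below. Each is the called member of its list with the largest change among those that hold the group's motif at an average of at least 1 CPM (read counts relative to a library's total after TMM scaling), and capitals mark that motif: CCAAT for the sterol gene Idi1, the E2F sequence TTTGGCGC for E2f2 (1 of its 2 windows), the cell-cycle homology region (CHR) TTTGAA for the mitotic kinase gene Ttk, and TGATGNAA, the composite element bound by ATF4 with C/EBP proteins, for Pycr1.
Idi1 (chr13:8885356-8885655, plus strand): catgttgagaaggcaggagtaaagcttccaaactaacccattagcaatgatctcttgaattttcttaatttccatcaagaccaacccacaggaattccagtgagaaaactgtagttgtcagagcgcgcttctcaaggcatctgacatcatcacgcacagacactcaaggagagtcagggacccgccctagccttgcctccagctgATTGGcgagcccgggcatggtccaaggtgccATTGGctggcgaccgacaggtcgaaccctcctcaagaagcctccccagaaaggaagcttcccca
E2f2 (chr4:136172024-136172323, plus strand): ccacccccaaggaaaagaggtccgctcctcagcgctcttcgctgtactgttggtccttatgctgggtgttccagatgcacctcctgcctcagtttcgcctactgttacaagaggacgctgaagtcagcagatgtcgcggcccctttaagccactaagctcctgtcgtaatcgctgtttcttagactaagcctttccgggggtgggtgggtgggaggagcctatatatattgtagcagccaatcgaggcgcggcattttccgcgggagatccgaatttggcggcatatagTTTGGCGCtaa
Ttk (chr9:83834439-83834738, plus strand): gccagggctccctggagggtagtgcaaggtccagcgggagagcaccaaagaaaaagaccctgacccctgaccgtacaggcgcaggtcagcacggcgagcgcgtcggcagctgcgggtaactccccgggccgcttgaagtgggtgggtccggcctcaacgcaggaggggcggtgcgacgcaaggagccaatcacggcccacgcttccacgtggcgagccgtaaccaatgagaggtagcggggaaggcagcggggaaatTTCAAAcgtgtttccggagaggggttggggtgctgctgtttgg
Pycr1 (chr11:120643699-120643998, minus strand): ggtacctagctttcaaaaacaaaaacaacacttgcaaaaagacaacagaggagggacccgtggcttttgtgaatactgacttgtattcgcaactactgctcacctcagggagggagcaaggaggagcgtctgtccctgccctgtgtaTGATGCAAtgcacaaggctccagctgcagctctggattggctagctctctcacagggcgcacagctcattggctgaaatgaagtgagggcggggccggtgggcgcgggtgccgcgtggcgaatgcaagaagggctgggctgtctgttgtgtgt
CCAAT, on either strand, was in 15 of 16 cholesterol genes with a window (93.8%), against 43.0% of all tested genes with one. It was not particular to that list. It was in 16 of 18 genes of endoplasmic reticulum folding and XBP1 targets (88.9%) and 21 of 27 mitosis genes (77.8%). Several further lists also exceeded the background, among them Ifit and Oas RNA effectors (10 of 14, 71.4%), MHC class I presentation (12 of 17, 70.6%) and fatty acid synthesis (9 of 13, 69.2%). In some lists it was near or below the background, as in cytosolic ribosomal proteins (11 of 31, 35.5%). TTTGGCGC or TTTCCCGC was in 10 of 32 replication genes (31.2%, against 3.34%), TTTGAA in 20 of 27 mitosis genes (74.1%, against 14.3%) and TGATGNAA in 13 of 33 ATF4 target genes (39.4%, against 2.82%).

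The pretreated libraries held 27147621 and 27768215 gene counts and the naive libraries 41600059 and 17170845, within 17170845 to 44116418 over the study. Naive replicate 1 stood apart: ribosomal RNA (Rn45s) and the mitochondrial leucyl-tRNA synthetase gene Lars2 took 10.6% of its counts, against 25.7% in naive replicate 2, and 25.7% and 27.1% in the pretreated libraries. List counts that move by over 1.5 times without it are given with and without it below; its part in them is otherwise not tested. Of 15 fibroblast markers 13 were tested and 2, Fap and Tcf21, had 0 counts in all 4 libraries; Thy1 had at most 0.174 CPM. Collagen and mesenchymal markers were present: Col1a2 had 4334 and 4429 CPM in the pretreated libraries and 6484 and 6298 CPM in the naive libraries, and Vim, a mesenchymal intermediate filament, had 4860 and 5196 CPM in the pretreated libraries and 4319 and 4578 CPM in the naive libraries. Markers of macrophages and blood summed to 13.5 to 17.0 CPM over the 4 libraries, with 9 of 20 at 0, and those of endothelium to 4.34 to 4.84 CPM, with 2 of 13 at 0. Epithelial markers summed to 18.3 to 23 CPM (3 of 12 at 0), skeletal muscle markers to 1.52 to 1.91 CPM (6 of 13 at 0), nerve and glia markers to 20.3 to 22.7 CPM (2 of 13 at 0), adipocyte markers to 3.57 to 4.53 CPM (3 of 10 at 0), and cartilage and bone markers to 37.2 to 44.1 CPM (3 of 10 at 0). Of these other-cell markers, Cd14, Krt19 and Runx2 were called higher and Acta1 lower; their part in the results was not tested. In Whsc1 itself, KO libraries held 109 and 110 CPM in the pretreated state and 95.6 and 99.7 CPM in the naive state. WT libraries held 146 and 133 CPM pretreated and 112 and 108 CPM naive. Gene-level counts thus lay below WT in KO within each state, but pretreated KO and naive WT libraries overlapped. Which part of the gene was deleted is not given in the sources used here.

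At 24 h after washout 1733 of 13802 tested genes were called higher in pretreated cells and 1574 lower, which is 12.6% and 11.4% (edgeR quasi-likelihood test, Benjamini-Hochberg adjusted p under 0.05 over all genes tested). Most changes were small: the median size of a call was 0.29 on the log2 scale, and 58 genes (0.42%) were called higher and 84 (0.609%) lower by at least 2-fold. Over all genes tested the median log2 change was -0.0036. Libraries did not overlap, with pretreated higher, in 28.3% of tested genes, and with pretreated lower in 29.8%. In bulk RNA a change in the share of cells in a given state and a change in RNA per cell cannot be told apart. Without naive replicate 1 the calls numbered 2076 in place of 3307. The gene lists used below share some members.

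Components of ISGF3 and interferon regulatory factors were mostly higher in pretreated cells. Of 8 tested, 5 were called higher and 0 lower, with a median log2 change of 0.34. Irf9, the DNA-binding subunit of ISGF3, had 13.4 and 15.7 CPM in pretreated cells, 41.8 and 39.9 CPM at 2 h of a first exposure, and 5.03 and 5.73 CPM in naive cells at 0 h. Its pretreated libraries lay between the other states with no overlap; the log2 change over naive 0 h was 1.47 ± 0.10 (SE; edgeR adjusted p = 1.5e-11). Irf7, which amplifies interferon production, had 1.42 and 1.48 CPM in pretreated cells, 8.92 and 8.73 CPM at 2 h, and 0.513 and 0.347 CPM in naive cells (1.62 ± 0.25). Stat2 had 16 and 14 CPM in pretreated cells, 54.6 and 49.7 CPM at 2 h, and 11 and 9.84 CPM in naive cells (0.49 ± 0.09). Irf5 was also called higher, by 0.38.

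Of 14 genes of the receptor, its kinases and its inhibitors 2 were called higher and 2 lower, shares near those of all genes tested (12.6% and 11.4%), with a median log2 change of -0.04. Socs1, which blocks Jak kinases, had 5.9 and 6.88 CPM in pretreated cells and 4.51 and 4.57 CPM in naive cells, and rose by 0.49; Socs3 rose by 0.36. Ifnar1, a receptor chain, had 48.4 and 48.6 CPM in pretreated cells and 54.9 and 55.7 CPM in naive cells, and its log2 change was -0.19. Stat3 had 47.6 and 51.2 CPM in pretreated cells and 63.5 and 57.1 CPM in naive cells (-0.30). With a library left out, the count called higher fell to 1 without naive replicate 1 and without either pretreated replicate, and the count called lower fell to 1 without naive replicate 1.

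Usp18 showed the largest rise of any gene named by size. It removes ISG15 from proteins and blocks signalling at the receptor. It had 3.06 and 3.36 CPM in pretreated cells, 20.9 and 18.1 CPM at 2 h, and 0.296 and 0.405 CPM in naive cells at 0 h. All 3 states were apart; the fitted log2 change at 24 h was 3.29 ± 0.28 (edgeR adjusted p = 7.4e-10), and its log2 change against the 2 h level was -2.62. Isg15, the ubiquitin-like modifier itself, had 0.728 and 1.15 CPM in pretreated cells, 7.76 and 6.7 CPM at 2 h, and 0.256 and 0.405 CPM in naive cells (1.65 ± 0.36, edgeR adjusted p = 0.001, but 0.136 without naive replicate 1). Of the 6 genes of ISG15 conjugation and removal, 3 were called higher, with a median of 0.39, and 1 without naive replicate 1. The washout comparison shares the naive 0 h libraries with the first response and the pretreated libraries with the distance to the 2 h level, so the values are set side by side only.

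Of 47 Mx, viperin and other antiviral effector genes 5 were called higher at 24 h after washout than at 2 h of a first exposure, a share below the 15.9% of all genes tested, so they are described singly. Bst2, also called tetherin, holds budding virions at the cell surface. It had 10.2 and 11.1 CPM in pretreated cells, 6.4 and 4.91 CPM at 2 h, and 2.46 and 1.91 CPM in naive cells at 0 h. Its log2 change was 2.20 ± 0.14 over naive 0 h (edgeR adjusted p = 4.4e-12) and 0.88 ± 0.13 over naive 2 h (edgeR adjusted p = 2.3e-06). Ifi27, a small mitochondrial and nuclear envelope protein gene, had 43.1 and 52.1 CPM in pretreated cells, 29.1 and 24.9 CPM at 2 h, and 22.4 and 23.3 CPM in naive cells. It stood 1.07 ± 0.08 above naive 0 h and 0.80 ± 0.08 above naive 2 h (edgeR adjusted p = 8.5e-11 and 4e-09). Lgals3bp, a secreted galectin-binding glycoprotein, had 14.9 and 16.6 CPM in pretreated cells, 11.4 and 9.72 CPM at 2 h, and 6.17 and 5.21 CPM in naive cells (1.42 ± 0.11 over naive 0 h, 0.56 ± 0.10 over naive 2 h). Slfn9, of the Schlafen family, had 31.8 and 34.6 CPM in pretreated cells, 28.1 and 28.7 CPM at 2 h, and 18.6 and 19.1 CPM in naive cells (0.82 ± 0.07 and 0.23 ± 0.07). Its difference from 2 h was lost without pretreated replicate 2 (edgeR adjusted p = 0.137) and without naive 2 h replicate 1 (edgeR adjusted p = 0.0945). The fifth of these was Pml, named because it completes the count, a scaffold of nuclear bodies, with 54.5 and 51.2 CPM in pretreated cells, 41.6 and 43.1 CPM at 2 h, and 44.9 and 37.8 CPM in naive cells (0.33 ± 0.06 and 0.32 ± 0.06).

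The whole list of 47 tested Mx, viperin and other antiviral effector genes had 21 called higher and 1 lower at 24 h, with a median log2 change of 0.39 and pretreated libraries above naive ones without overlap in 31. Against the 2 h level, 5 were called higher and 30 lower (background 16.9% lower of all tested genes), with a median of -0.79. At 2 h of a first exposure 37 were called higher and 0 lower (background 15% and 15.6%), with a median of 1.11. Without naive replicate 1 the 21 became 11. Xaf1, a pro-apoptotic interferon target, had 5.13 and 6.91 CPM in pretreated cells, 9.83 and 8.19 CPM at 2 h, and 1.68 and 1.97 CPM in naive cells, a rise of 1.78 ± 0.19. Apol9a, whose reads cannot be separated with certainty from those of its near copy Apol9b, had 0.91 and 1.15 CPM in pretreated cells, 2.13 and 2.23 CPM at 2 h, and 0.296 and 0.174 CPM in naive cells (1.94 ± 0.35). Mx2, a dynamin-like GTPase that blocks viruses, had 0.328 and 0.702 CPM in pretreated cells, 3.72 and 3.27 CPM at 2 h, and 0.0789 and 0.116 CPM in naive cells, a level of a few reads. Its fitted change was 2.49 ± 0.54, and the call was lost without naive replicate 1 or pretreated replicate 2.

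Several canonical interferon-stimulated genes were not called at 24 h although they were high at 2 h. Ifit1, which binds viral RNA lacking a methylated cap, had 2.11 and 2 CPM in pretreated cells, 46.2 and 41.9 CPM at 2 h, and 1.16 and 2.26 CPM in naive cells. Pretreated and naive libraries overlapped, the log2 change was 0.50 ± 0.32 (edgeR adjusted p = 0.28), and the log2 change against the 2 h level was -4.43. Ifit3 had 1.2 and 1.44 CPM in pretreated cells, 28.1 and 23.1 CPM at 2 h, and 0.867 and 1.33 CPM in naive cells (edgeR adjusted p = 0.51 for 24 h). Rsad2, which encodes viperin, had 0.473 and 0.37 CPM in pretreated cells, 1.52 and 1.64 CPM at 2 h, and 0.197 and 0.405 CPM in naive cells (edgeR adjusted p = 0.27). The chemokine gene Cxcl10 had 0.364 and 0.518 CPM in pretreated cells, 3.07 and 2.68 CPM at 2 h, and 0.434 and 0.984 CPM in naive cells (edgeR adjusted p = 0.53). For these genes the p that misses the threshold does not show that the states were alike. Rtp4, a chaperone of membrane receptors, had 1.16 and 1.33 CPM in pretreated cells, 3.98 and 2.93 CPM at 2 h, and 0.867 and 0.637 CPM in naive cells (edgeR adjusted p = 0.094).

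**Figure D1:**
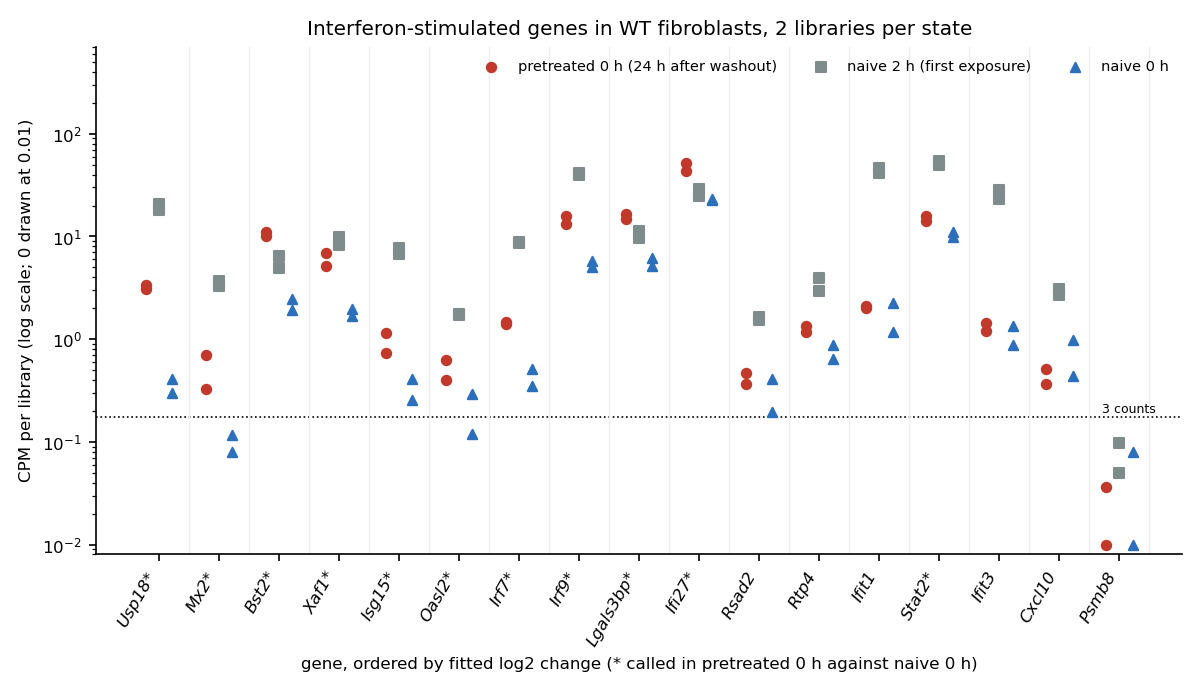
Levels of 17 interferon-stimulated genes in WT cells, in CPM on a log axis, with 1 point per library: pretreated 0 h in red circles, naive 2 h in grey squares, naive 0 h in blue triangles; genes run by fitted log2 change, an asterisk marks those called in pretreated 0 h against naive 0 h, and the dotted line is the level of 3 counts in the shallowest library. Bst2, Lgals3bp and Ifi27 lie above their 2 h levels in both pretreated libraries, while Ifit1, Ifit3 and Cxcl10 overlap the naive 0 h libraries.

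Other interferon effectors were called in part. Of 19 tested Ifit and Oas RNA effectors 8 were called higher and 0 lower (median 0.56), but only 3 without naive replicate 1, 5 without pretreated replicate 2 and 5 in a fit on the compared groups alone. Eif2ak2, the RNA-activated kinase PKR that stops translation, had 61 and 64.9 CPM in pretreated cells, 103 and 99.6 CPM at 2 h, and 46.8 and 53.6 CPM in naive cells (0.35 ± 0.05). Zc3hav1, a zinc-finger antiviral protein, had 74.5 and 82 CPM in pretreated cells and 62.4 and 62.2 CPM in naive cells (0.33). Oas1a had 0.328 and 0.628 CPM in pretreated cells and 0.0394 and 0.0579 CPM in naive cells, too few reads for a fold change. Among 16 nucleic acid sensors 7 were called higher and 1 lower (median 0.20), and 4 higher without naive replicate 1 or without pretreated replicate 1. Ddx58, which encodes the viral RNA sensor RIG-I, had 29 and 33.3 CPM in pretreated cells, 71.8 and 66 CPM at 2 h, and 21.8 and 21.2 CPM in naive cells, a rise of 0.53 ± 0.07. Samhd1, a dNTP hydrolase that restricts retroviruses, had 46.9 and 44.2 CPM in pretreated cells, 41.3 and 37.5 CPM at 2 h, and 39.2 and 37.6 CPM in naive cells. It was called above both, by 0.24 ± 0.05 over naive 0 h and by 0.20 ± 0.06 over naive 2 h (edgeR adjusted p = 0.0054 against 2 h). Of 16 interferon-inducible GTPases 4 were called higher and 1 lower, and 2 higher without naive replicate 1; 4 of the 16 had at most 3 counts over the 4 WT libraries, so no median is given. Irgm1, which acts on vacuoles of intracellular pathogens, had 59.7 and 62.6 CPM in pretreated cells, 208 and 204 CPM at 2 h, and 42.3 and 45 CPM in naive cells (0.50 ± 0.06).

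Antigen presentation and inflammatory genes were mostly not called. Of 21 tested genes of MHC class I presentation 3 were called higher and 2 lower (median -0.05), shares near or below the background. Without naive replicate 1 these became 1 and 0, and 1 was called higher without pretreated replicate 2. B2m, the light chain of class I molecules, had 260 and 272 CPM in pretreated cells, 256 and 241 CPM at 2 h, and 211 and 219 CPM in naive cells, and rose by 0.31 ± 0.05. The peptide transporter gene Tap2 had 1.49 and 2.77 CPM in pretreated cells and 3.69 and 3.3 CPM in naive cells (-0.75), and its call was lost without naive replicate 1 or pretreated replicate 1. Of 21 chemokine and NF-kB target genes 4 were called higher and 2 lower (median -0.03). Ptgs2, the inducible cyclooxygenase, had 164 and 164 CPM in pretreated cells, 678 and 671 CPM at 2 h, and 117 and 120 CPM in naive cells, a rise of 0.47 ± 0.05. Cxcl1, a neutrophil chemokine, had 3.13 and 3.22 CPM in pretreated cells, 1.97 and 1.84 CPM at 2 h, and 5.8 and 5.79 CPM in naive cells (-0.87 ± 0.16).

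Genes of DNA replication and mitosis were higher in pretreated cells almost as whole lists. Of 38 replication and G1/S genes 36 were called higher and 0 lower, with a median log2 change of 0.42, and of 34 mitosis genes 31 were called higher and 0 lower, with a median of 0.30. Pretreated libraries lay above naive ones without overlap in 37 of the replication genes and 34 of the mitosis genes. Over the alternative settings the counts called higher were 34 to 36 and 29 to 32. Cdc6, which loads the replicative helicase, had 40 and 36.5 CPM in pretreated cells, 18.5 and 19.6 CPM at 2 h, and 22.1 and 22.6 CPM in naive cells, a rise of 0.78 ± 0.07 (edgeR adjusted p = 8.5e-10). Mcm10, another factor of the replication fork, had 54.3 and 52.5 CPM in pretreated cells and 35.3 and 33.4 CPM in naive cells (0.63 ± 0.06). Rrm2, a subunit of ribonucleotide reductase, had 125 and 122 CPM in pretreated cells and 83.8 and 85.7 CPM in naive cells (0.55 ± 0.05). In mitosis, the proliferation marker Mki67 had 693 and 678 CPM in pretreated cells, 485 and 475 CPM at 2 h, and 541 and 526 CPM in naive cells, a rise of 0.36 ± 0.04 (edgeR adjusted p = 2.5e-07). Foxm1, a transcription factor of G2/M genes, had 108 and 103 CPM in pretreated cells and 77.2 and 74.6 CPM in naive cells (0.48 ± 0.05). At 2 h of a first exposure 3 replication genes were called higher and 5 lower, and 0 mitosis genes higher and 16 lower. The background was 15% higher and 15.6% lower of all genes tested, and only the mitosis genes called lower exceeded it.

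Clustered histone genes, transcribed in S phase, rose with them: all 27 tested members of the list of 28 were called higher, with a median of 0.54. The 2 pretreated libraries were unequal here. The list summed to 1827 and 2438 CPM in pretreated cells and to 1551 and 1539 CPM in naive cells, and without pretreated replicate 2 only 7 of 27 were called. Hist1h1a, a linker histone gene, had 238 and 268 CPM in pretreated cells and 174 and 179 CPM in naive cells (0.52 ± 0.05), whereas Hist1h2bb had 98.5 and 135 CPM in pretreated cells and 78.9 and 79.3 CPM in naive cells (0.56 ± 0.09). Near-identical coding sequences make single histone genes uncertain.

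Genes that hold back the cell cycle were lower in part. Of 24 CDK inhibitor and p53 target genes 12 were called lower and 1 higher, with a median of -0.18; the 1 higher, Pmaip1, was not called without naive replicate 1 or pretreated replicate 2. Trp53inp1, a p53-induced stress gene, had 76.4 and 83.4 CPM in pretreated cells, 51.4 and 49.8 CPM at 2 h, and 147 and 162 CPM in naive cells; the log2 change was -0.95 ± 0.06 (edgeR adjusted p = 6.1e-12). Gadd45a, a growth arrest and DNA damage gene, had 16.1 and 16.8 CPM in pretreated cells and 28.8 and 27.8 CPM in naive cells (-0.79 ± 0.09). Btg2, an antiproliferative gene, had 24.2 and 25.3 CPM in pretreated cells and 40.4 and 38.3 CPM in naive cells (-0.68). The CDK inhibitors themselves fell by 0.24 (Cdkn1a), 0.43 (Cdkn2a) and 0.72 (Cdkn2b) on the log2 scale.

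Immediate early genes and feedback inhibitors of MAP kinase signalling were partly raised, with 15 of 36 tested called higher, 1 lower and a median of 0.24. At 2 h of a first exposure 32 of the 36 were called higher, among them the 4 with the smallest p at 24 h, and 1 was called lower (background 15% and 15.6%). Against the 2 h level, 2 were called higher at 24 h and 30 lower (background 15.9% and 16.9%). Phlda1 had 19.9 and 20.9 CPM in pretreated cells, 56.5 and 61.1 CPM at 2 h, and 10.4 and 10.6 CPM in naive cells (0.97 ± 0.08, edgeR adjusted p = 9.8e-10). Etv4, an ETS factor, had 28.6 and 27.2 CPM in pretreated cells, 22.3 and 22.2 CPM at 2 h, and 15.4 and 15.6 CPM in naive cells (0.85 ± 0.08). Dusp4, a MAP kinase phosphatase, had 13.4 and 12.2 CPM in pretreated cells, 50.8 and 47 CPM at 2 h, and 6.66 and 7.47 CPM in naive cells (0.89 ± 0.10), and Fosl1, an AP-1 subunit, rose by 0.93 ± 0.11. The 1 lower member, the stress factor gene Atf3, had 6.66 and 7.36 CPM in pretreated cells and 11 and 12.3 CPM in naive cells.

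Genes of cholesterol synthesis and uptake were higher along almost the whole pathway. Of 24 tested 22 were called higher and 0 lower, with a median log2 change of 0.46 (the remaining list member, Hmgcs1, had 0 counts and was not tested), and the count was 20 to 23 over the alternative settings. These genes are driven by SREBP2 when sterols are scarce. Idi1, an isomerase of the isoprenoid steps, had 154 and 151 CPM in pretreated cells, 89.3 and 92.2 CPM at 2 h, and 72.6 and 74.2 CPM in naive cells, a rise of 1.06 ± 0.05 (edgeR adjusted p = 8.5e-16). Acat2, which makes acetoacetyl-CoA, had 65.8 and 74.3 CPM in pretreated cells and 38.2 and 34.8 CPM in naive cells (0.92 ± 0.06). Insig1, which holds SREBP precursors in the endoplasmic reticulum, had 123 and 126 CPM in pretreated cells, 115 and 113 CPM at 2 h, and 78.3 and 80 CPM in naive cells (0.66 ± 0.05). Srebf2, which encodes SREBP2, rose by 0.26. In cells exposed for 2 h 10 of the 24 were called higher and 1 lower (background 15% and 15.6%), with a median of 0.12.

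Genes of fatty acid synthesis were mostly not called: 4 of 16 genes were called higher and 1 lower, with a median of 0.02. The 4 were Fasn, fatty acid synthase, with 688 and 663 CPM in pretreated cells and 435 and 415 CPM in naive cells (0.67 ± 0.05); Elovl6, an elongase, with 68 and 62.2 CPM in pretreated cells and 42.3 and 39.5 CPM in naive cells (0.66 ± 0.06); and the genes of acetyl-CoA carboxylase Acaca (0.35) and ATP citrate lyase Acly (0.29). Of 8 genes of cholesterol efflux and LXR targets 2 were called lower, with a median of -0.24, and 0 without naive replicate 1. Abca1, the cholesterol exporter, had 6.3 and 5.21 CPM in pretreated cells and 9.58 and 7.99 CPM in naive cells (-0.66 ± 0.13).

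Targets of ATF4, the transcription factor of the integrated stress response that drives amino acid synthesis and uptake, were lower. Of 42 tested 35 were called lower and 0 higher, with a median of -0.31, and 28 to 36 were called lower over the alternative settings. Aldh1l2, a mitochondrial enzyme of folate metabolism, had 243 and 251 CPM in pretreated cells, 383 and 394 CPM at 2 h, and 463 and 450 CPM in naive cells, a log2 change of -0.89 ± 0.04 (edgeR adjusted p = 3.3e-15). Gpt2, alanine aminotransferase, had 119 and 124 CPM in pretreated cells and 168 and 166 CPM in naive cells (-0.46 ± 0.05). Pycr1, of proline synthesis, had 6.95 and 8.35 CPM in pretreated cells and 12.9 and 12.6 CPM in naive cells (-0.74 ± 0.11). Ddit4, an inhibitor of mTORC1, had 61.7 and 63.3 CPM in pretreated cells, 46.8 and 45.2 CPM at 2 h, and 106 and 99 CPM in naive cells. Atf4 itself had 326 and 330 CPM in pretreated cells and 379 and 372 CPM in naive cells (-0.20). Of 22 genes of endoplasmic reticulum folding and XBP1 targets 8 were called lower and 0 higher (median -0.08); Herpud1, of ER-associated degradation, had 72.8 and 78.4 CPM in pretreated cells and 103 and 92.6 CPM in naive cells.

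Genes of ribosome production were mostly higher. Of 30 genes of ribosome biogenesis and MYC targets 25 were called higher and 1 lower, with a median of 0.22. Nolc1, a nucleolar phosphoprotein gene, had 130 and 129 CPM in pretreated cells and 97 and 96.7 CPM in naive cells (0.42 ± 0.05), and Myc had 45.8 and 45.8 CPM in pretreated cells and 36 and 33.4 CPM in naive cells (0.39). Of 43 cytosolic ribosomal protein genes 0 were called higher and 1 lower, with a median of -0.03. Of 24 glycolysis and hypoxia targets 14 were called higher and 1 lower (median 0.19), or 9 higher without pretreated replicate 2. Ldha, lactate dehydrogenase, had 921 and 937 CPM in pretreated cells and 712 and 730 CPM in naive cells (0.37 ± 0.04). The 1 lower member was Ndrg1, with 58.7 and 64 CPM in pretreated cells and 90 and 88.6 CPM in naive cells (-0.54). Of 41 nuclear-encoded respiratory chain genes 4 were called higher and 4 lower, with a median of -0.03; with a library left out these counts were 2 higher and 1 to 7 lower.

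Many transcripts of the extracellular matrix were lower. Of 24 collagen chains 14 were called lower and 2 higher, with a median of -0.39, and the list summed to 9431 and 9361 CPM in pretreated cells and to 13140 and 12584 CPM in naive cells. Col3a1, of fibrillar type III collagen, had 123 and 120 CPM in pretreated cells, 199 and 199 CPM at 2 h, and 248 and 244 CPM in naive cells, a log2 change of -1.02 ± 0.07 (edgeR adjusted p = 2.6e-11). Col6a1 had 197 and 194 CPM in pretreated cells and 324 and 313 CPM in naive cells (-0.70), and Col5a1 had 370 and 369 CPM in pretreated cells and 541 and 536 CPM in naive cells (-0.54). The 2 higher members were Col7a1 and Col8a1, of which 1 was called without pretreated replicate 1 or either naive replicate. Lox, the collagen crosslinking oxidase, had 580 and 621 CPM in pretreated cells and 900 and 907 CPM in naive cells (-0.59 ± 0.05); in its list 7 of 21 were called lower and 1 higher. Of 36 elastic fibre, proteoglycan and matricellular genes 13 were called lower and 3 higher (median -0.06). Postn, the matricellular protein periostin, had 87.4 and 93.7 CPM in pretreated cells, 230 and 226 CPM at 2 h, and 272 and 284 CPM in naive cells, a log2 change of -1.62 ± 0.11 (edgeR adjusted p = 1.5e-11). Ogn, the small proteoglycan osteoglycin, had 12.1 and 14.8 CPM in pretreated cells and 33.9 and 37.2 CPM in naive cells (-1.39 ± 0.14), and Matn2 had 74 and 78.7 CPM in pretreated cells and 127 and 130 CPM in naive cells (-0.75).

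Matrix proteases and their inhibitors were called lower in 10 of 22 cases and higher in 4 (2 without pretreated replicate 1), with a median of -0.18. Adamts4, an aggrecanase, had 7.32 and 8.65 CPM in pretreated cells and 15.9 and 16 CPM in naive cells, and the gelatinase gene Mmp2 had 470 and 458 CPM in pretreated cells and 607 and 605 CPM in naive cells (-0.39). Contractile and SRF or YAP target genes moved both ways, with 9 of 25 called higher and 4 lower (median 0.08), or 5 higher without naive replicate 1. Axl, a receptor kinase gene, had 537 and 536 CPM in pretreated cells and 401 and 398 CPM in naive cells (0.42). Among 26 TGF-beta and BMP genes 5 were called higher and 7 lower (median 0.03), or 3 and 4 without naive replicate 1. The BMP targets Id1 and Id2 were among the higher ones, Id2 with 17.8 and 17.3 CPM in pretreated cells and 9.48 and 8.22 CPM in naive cells (0.95), and the receptor gene Tgfbr2 among the lower, with 118 and 122 CPM in pretreated cells and 172 and 171 CPM in naive cells (-0.51). Of 29 growth factor and receptor genes 9 were called higher and 2 lower (median 0.08), or 5 higher without naive replicate 1, without naive replicate 2 or with DESeq2. Of 27 chromatin modifiers 6 were called higher and 3 lower (median 0.05); Dnmt1, the maintenance DNA methyltransferase, had 217 and 209 CPM in pretreated cells and 173 and 166 CPM in naive cells (0.32). Of 13 fibroblast markers 2 were called higher and 6 lower, among them Col1a1, Col1a2 and Prrx1, with a median of -0.10.

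**Figure D2:**
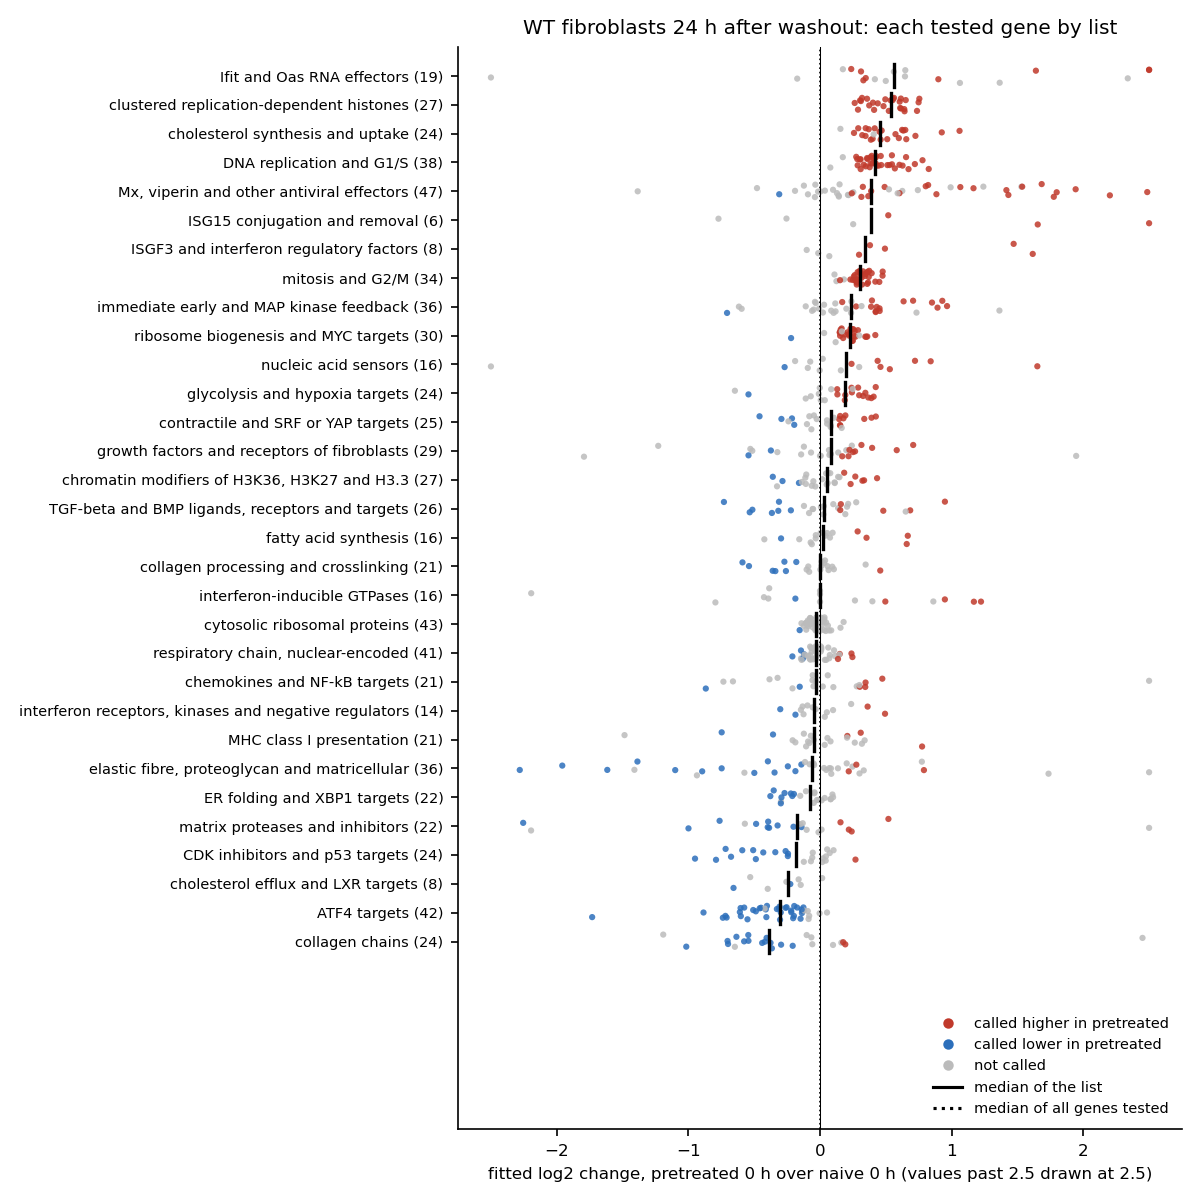
Fitted log2 change of every tested gene in 31 lists, pretreated 0 h over naive 0 h in WT cells, 1 point per gene, with the number tested in brackets; red points were called higher, blue lower and grey not called, black bars are list medians and the dotted line is the median of all genes tested. Replication, mitosis, histone and cholesterol genes lie almost entirely right of 0, ATF4 targets and most collagens left of it, and ribosomal proteins around it.

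**Figure D3:**
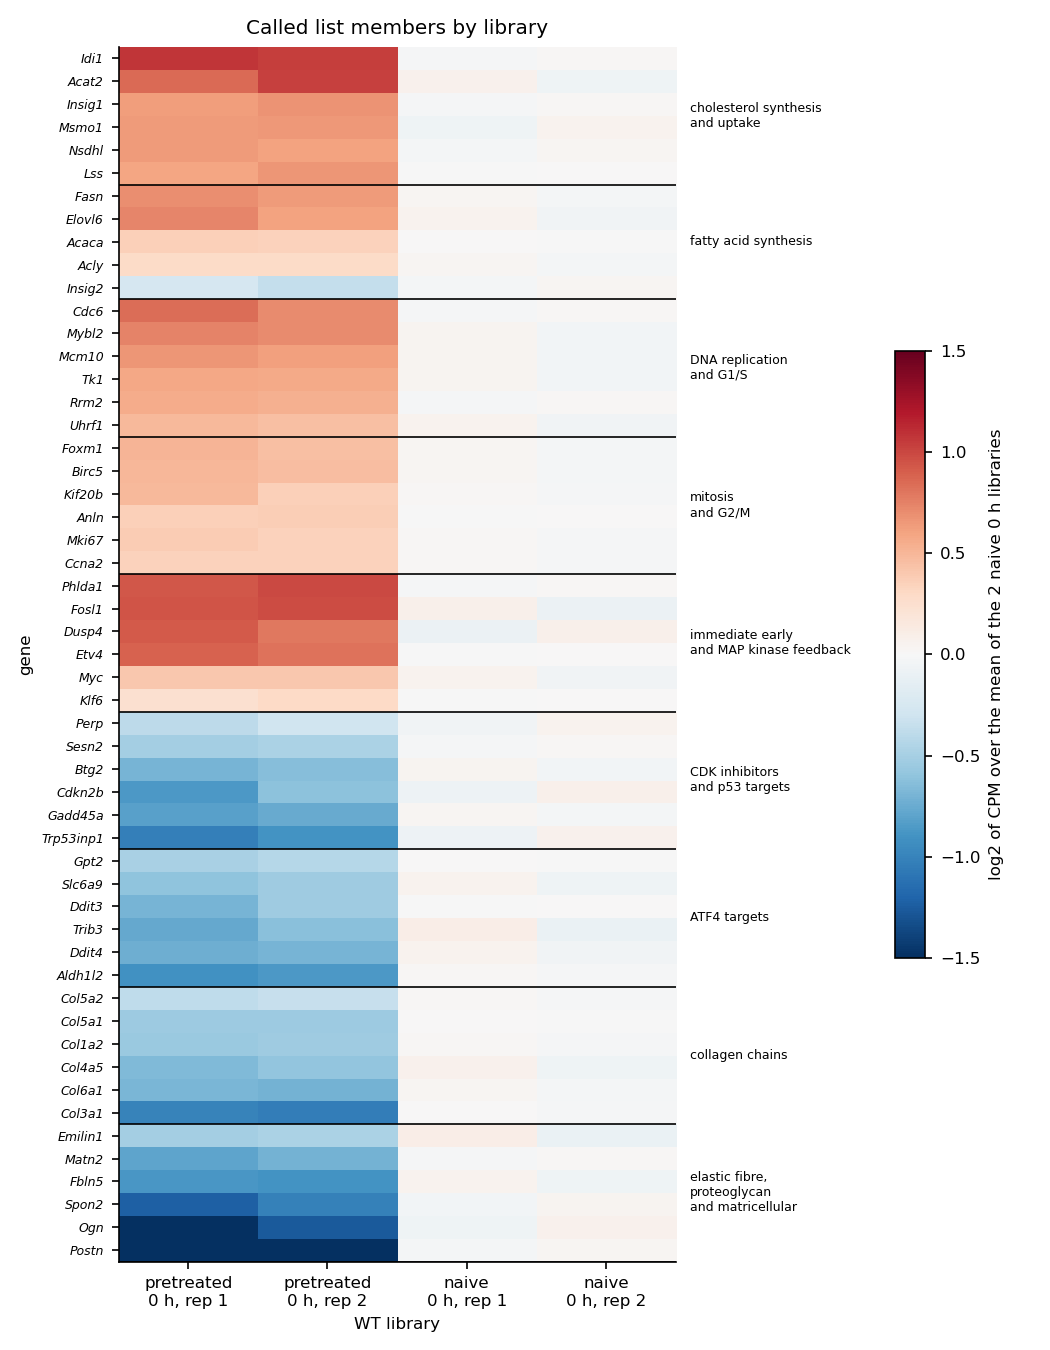
Log2 of CPM in each of the 4 WT libraries over the mean of the 2 naive libraries, for up to 6 called members of 9 lists with the smallest p and an average of at least 1 CPM; colours end at 1.5 in either direction. Both pretreated libraries show the same direction for every gene drawn, which their being called required in part, and the naive libraries differ little from each other.

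Some of the largest changes lay outside these lists. Among the 12 largest rises, Prl2c2, of the placental proliferin family with near-identical copies, had 2.00 and 2.85 CPM in pretreated cells and 0.71 and 0.694 CPM in naive cells (1.77 ± 0.27). Il33, an alarmin cytokine gene, had 3.86 and 3.81 CPM in pretreated cells, 2.68 and 3.13 CPM at 2 h, and 1.22 and 1.5 CPM in naive cells (1.56 ± 0.20). Sema7a, a membrane-anchored semaphorin gene, had 2.8 and 2.14 CPM in pretreated cells, 45.1 and 41.6 CPM at 2 h, and 0.907 and 0.694 CPM in naive cells (1.54 ± 0.23). Both stood clear of the naive libraries, but only Sema7a was far below its 2 h level. Among the 12 largest falls, Serpinb1a, a protease inhibitor gene, was the most abundant by counts, with 14.3 and 18.8 CPM in pretreated cells and 53.6 and 56.1 CPM in naive cells (-1.72 ± 0.15, edgeR adjusted p = 7.2e-10). Scara5, a ferritin receptor gene, had 1.09 and 1.63 CPM in pretreated cells and 5.64 and 5.67 CPM in naive cells (-2.05 ± 0.21). Pdlim3, an actin-associated protein gene, had 1.09 and 0.924 CPM in pretreated cells and 4.89 and 4.86 CPM in naive cells (-2.27 ± 0.25). The small proteoglycan genes Prelp and Fmod were also among these falls, Prelp with 0.728 and 0.813 CPM in pretreated cells and 2.98 and 3.07 CPM in naive cells (-1.96 ± 0.26).

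The same washout was measured in NSD2 KO cells with other libraries, where 1533 genes (11.1%) were called higher and 1463 (10.6%) lower. Both genotypes shared 937 genes called higher, which is 54.1% of the WT list and 61.1% of the KO list; they shared 670 genes called lower, 42.6% of the WT list and 45.8% of the KO list. There were 26 WT-higher and 20 WT-lower genes called in the opposite direction in KO. Tested directly, the WT change minus the KO change was called positive for 209 genes (1.51%) and negative for 236 (1.71%). Replication, mitosis, ribosome biogenesis and ATF4 target genes changed in KO as well: 33 of 38, 24 of 34 and 22 of 30 were called higher and 27 of 42 ATF4 targets lower.

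Cholesterol genes differed between the genotypes. In KO, 2 of the 24 were called higher and 7 lower, with a median of -0.07, and the WT change exceeded the KO change in 22 of 24 by the test of the difference, against a background of 1.51%; over the alternative settings this count was 20 to 22. Idi1 in KO had 181 and 176 CPM pretreated and 161 and 151 CPM naive, so that its naive level was above that of WT; the difference of the changes was 0.86 ± 0.06 (edgeR adjusted p = 1e-09). Insig1 in KO had 192 and 199 CPM pretreated and 212 and 203 CPM naive, a difference of 0.74 ± 0.07 from the WT change. Acat2 in KO had 85.2 and 88 CPM pretreated and 77.9 and 80.9 CPM naive. For Insig1 and Acat2 every KO library lay above every WT library. In fatty acid synthesis the difference was called in 7 of 16 genes, all with the WT change above the KO change. In KO 0 of the 16 were called higher and 9 lower, with a median of -0.16. In WT 4 were called higher and 1 lower, with a median of 0.02. Fasn in KO had 578 and 540 CPM pretreated and 511 and 529 CPM naive, a difference of 0.56 ± 0.07.

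**Figure D4:**
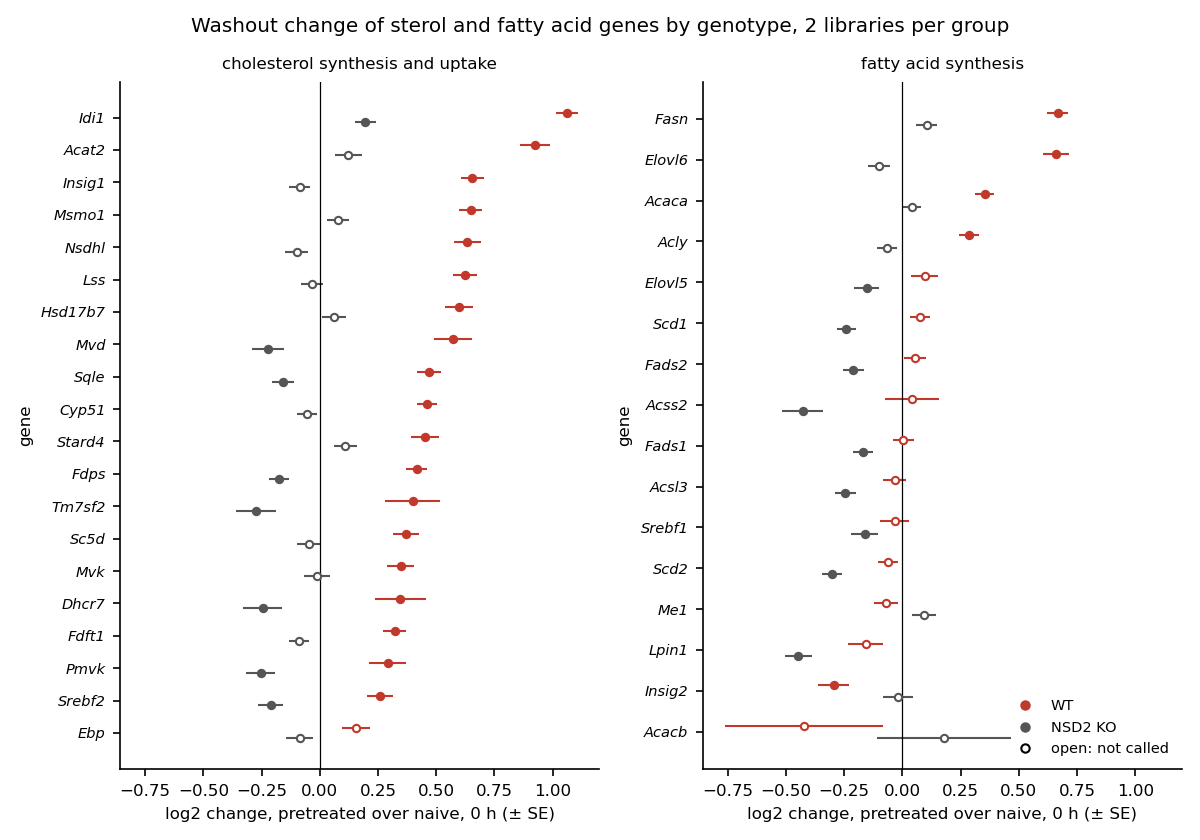
Fitted log2 change after washout, pretreated over naive at 0 h, with SE, for 20 of the 24 tested genes of cholesterol synthesis and uptake (left; the other 4 are not reported singly) and 16 of fatty acid synthesis (right); WT in red and NSD2 KO in grey, 2 libraries per group, open points not called. In the left panel the WT points drawn lie right of 0, and KO points lie on both sides of it.

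For a minority of interferon-stimulated genes a difference was called in the opposite direction. In KO 16 of 19 Ifit and Oas genes (median 1.45), 40 of 47 Mx, viperin and other effectors (0.94) and 11 of 16 GTPases were called higher after washout. The WT change was called below the KO change in 1, 13 and 6 members of these lists, against a background of 1.71% of all tested genes. The median difference over all tested members was -0.77 for Ifit and Oas genes and -0.50 for Mx, viperin and other effectors. None is given for the GTPases, for the reason stated above. A difference that was not called does not show that the changes were alike. Ifit1 in KO had 9.92 and 11 CPM pretreated and 3.6 and 2.64 CPM naive, without overlap, but its difference from WT was not called (-1.30 ± 0.38, edgeR adjusted p = 0.0527). Ddx58 had a difference of -0.82 (edgeR adjusted p = 2.3e-06). For Bst2 the log2 changes were 2.20 in WT and 2.19 in KO, a difference of 0.014 ± 0.17. For Usp18 they were 3.29 in WT and 3.12 in KO, a difference of 0.17 ± 0.36. Neither difference was called, but both genes stood higher in KO than in WT in each state. Bst2 in KO had 35.9 and 41.4 CPM pretreated and 9.47 and 7.79 CPM naive. Usp18 in KO had 13.8 and 16.4 CPM pretreated and 2.18 and 1.45 CPM naive. In the matrix, Postn in KO had 287 and 337 CPM pretreated and 461 and 440 CPM naive, and the difference from WT was -1.09 (edgeR adjusted p = 3.2e-05). Col3a1 had a difference of -0.51 (edgeR adjusted p = 0.002), with log2 changes of -1.02 in WT and -0.50 in KO. Contractile and SRF or YAP target genes had 16 of 25 called higher in KO, and the difference was negative in 9 and positive in 1, or 5 negative without WT naive, KO naive or KO pretreated replicate 1. Il33, higher in pretreated WT cells, had 3.29 and 3.49 CPM pretreated and 4.48 and 5.28 CPM naive in KO, a difference of 2.10 ± 0.25 (edgeR adjusted p = 2.3e-06).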

How the data were processed

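RNA from mouse embryonic fibroblasts was made into paired-end libraries and sequenced; per the submitters' processing notes the tools were bcl2fastq 2.15, STAR 2.5.2b and HTSeq, with build mm9. The deposited files hold raw counts per gene, 1 table per library, with 24015 genes and 5 summary lines that were left out (reads in no feature came to 35.1% to 41.3%). No source used here names the annotation or the strand setting, so overlapping and antisense genes cannot be separated, and near-identical paralogs are uncertain. Depth was 17170845 to 44116418 counts per library.

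All 15 libraries in 8 groups were fitted together in R 4.3.3 with edgeR 4.0.16: TMM scaling, filterByExpr with a minimum count of 10 (13802 genes left), and the quasi-likelihood test with 7 residual degrees of freedom. Genes with a Benjamini-Hochberg adjusted p under 0.05 were called, and 5 comparisons were made. The pretreated and naive groups have 2 libraries each. Tested on simulated data with 13661 genes, the washout comparison recovered 85% of changes of 0.5 and 98% of changes of 1 on the log2 scale, with 5.67% of calls false. For the genotype difference, with 13691 genes, the shares were 74%, 95% and 5.59%. Counts were drawn from the fitted model's own spread, with 100 genes changed per size, all above 1 CPM in naive WT cells. Other genes of pretreated cells were kept at their naive level. These shares hold for that setting and are not error rates of the calls reported here. Replicates differed by more than sampling noise (ratio of chi-square to its degrees of freedom 3.74 to 178, and 1.97 to 5.05 once Rn45s and Lars2 were set aside), so none was counted as a duplicate.

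The results were recomputed with a replicate block, with DESeq2 1.42.0, with RLE size factors, without the filter, on the compared groups alone, without Rn45s and Lars2, and without each library in turn. Genes were named by rule: the 12 genes that rose most and the 12 that fell most, if called, without overlap between libraries and at 1 CPM or more, up to 4 called members with the smallest p in each of 39 lists, 18 interferon genes, the 4 largest genotype differences in each direction, and Whsc1; a few further list members complete a count or show a contrast and were chosen after their values were seen. A few list members are counted but not reported singly here, nor named in the figures. Members and lists were chosen with earlier results of these data known. Promoter windows (32851) came from RefSeq on GRCm38.p6, matched by symbol. Windows on chromosome 18 were left out of the search and of all motif shares. Figures were drawn with matplotlib 3.10.9.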

Additional observations from a re-analysis of the deposited data

Results flagged for a closer look

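For 31 named genes of the WT washout comparison the WT change was tested against the NSD2 KO change with edgeR's quasi-likelihood test, adjusted over all genes tested, and 15 differed. For 8 of the 15 (Fbn2, Il33, Dcn, Ccl9, Ifi44, Gbp9, Iigp1 and Rtp4) the call was fixed by the choice, since they were named for having the 4 largest called differences in each direction. Idi1, Acat2, Insig1, Fasn, Elovl6, Acaca and Acly were named for a small p in the WT washout, whose libraries also enter this difference. A difference in the direction of their WT change was thus favoured by the choice. Each value is the WT log2 change minus the KO log2 change.

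The WT change stood above the KO change in 11 of these. The elastic fibre gene Fbn2 had a fitted difference of 3.21, which rests on few reads (14 counts in pretreated WT, 5 in naive WT, 39 in pretreated KO and 107 in naive KO), with an edgeR adjusted p of 0.0336 that rose to 0.08 to 0.351 when any of 4 libraries was left out. Il33 had 2.10. Dcn, the small proteoglycan decorin, had 1.91, with 18.1 and 19.4 CPM in pretreated WT, 16.9 and 20.2 CPM in naive WT, 1.19 and 1.15 CPM in pretreated KO and 3.96 and 4.47 CPM in naive KO. The chemokine gene Ccl9 had 1.79, with 13.2 and 13.8 CPM in pretreated WT, 9.13 and 10 CPM in naive WT, 8.11 and 9.39 CPM in pretreated KO and 21.9 and 20.3 CPM in naive KO. Among sterol genes Idi1 had 0.865, Acat2 had 0.802 and Insig1 had 0.743. Among fatty acid genes Elovl6 had 0.759, Fasn had 0.562, Acly had 0.350 and Acaca had 0.314.

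The WT change stood below the KO change in 4 interferon-stimulated genes. Ifi44 had -2.97 ± 0.46, Gbp9 had -2.89 ± 0.59, Iigp1 had -2.54 ± 0.49 and Rtp4 had -2.08 ± 0.33. Their WT changes were imprecise. Over the alternative settings these ran from 0.34 to 1.28 for Ifi44 and from -1.31 to 0.17 for Gbp9. For Iigp1 the range was -0.45 to 0.63, and for Rtp4 it was 0.52 to 0.97. The call for Rtp4 was lost without WT naive replicate 1 (edgeR adjusted p = 0.125). Their causes were not tested.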

How the results depend on the processing

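Direction was checked for named genes only, in the WT washout, the genotype difference and the distance to the 2 h level. No called gene among those checked reversed under any alternative, and other called genes were not checked. The balance of WT washout calls did reverse: 1666 were higher and 1689 lower (49.7% higher) with Rn45s and Lars2 left out, against 1733 and 1574 (52.4%). The total of WT washout calls, 3307, was 2457 with DESeq2 and 3669 with the replicate block; leaving out 1 library gave 2076 to 2531. The first response, 4228, gave 2737 to 3616 with a library left out, the distance to the 2 h level, 4522, gave 3123 to 3829, and the KO washout, 2996, gave 1898 to 2167. The genotype difference, 445, gave 262 to 423, against 649 with the replicate block and 601 with no filter; fewer samples were in each left-out fit. With DESeq2, 59.6% of first response calls were higher, against 48.9%. Deviations of same-numbered libraries were little correlated over genes (-0.0185 to 0.0643). Sampling noise of single genes enters these correlations, so they cannot decide whether such libraries shared a culture or batch. The sources used here do not say, so the block was not read as a paired test.

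Of 149 named genes called in the WT washout comparison, 123 were called under every alternative with a value and 26 were lost in at least 1; 21 were lost without naive replicate 1, 9 without either pretreated replicate and 3 without naive replicate 2, and DESeq2 lost 0 of the 145 for which it gave a p. That p is the adjusted one, and a gene for which DESeq2 gave none was not counted as lost. The cause of the losses was not tested. Depth limits the interferon genes below about 1 CPM, where 3 counts correspond to 0.0591 to 0.174 CPM.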
